A study of Mus musculus with 96 samples.

Results

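The Cyp2 family of cytochrome P450 genes was followed across 96 liver RNA-seq libraries of male C57BL/6J mice fed a high fat and sucrose diet, D12492i, for 4 weeks. Members were the gene symbols formed by Cyp2, a lower-case subfamily letter and a number, with a level over 5 in 3 or more libraries of the Control, RevDKO and RevScapTKO table of hepatocytes or of liver macrophages. Of 25095 gene symbols in the files, 48 had such a name and 35 of them passed the level filter. Each cell type was sampled 4 times a day, at ZT4, ZT10, ZT16 and ZT22 (zeitgeber time counts the hours since lights came on), with 3 libraries per genotype and time, so that each genotype had 12 libraries per cell type.

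All mice carried floxed alleles and had received as adults an adeno-associated virus in which the hepatocyte-specific TBG promoter drove either GFP or Cre. Control mice received GFP. RevDKO mice (labelled ReverbhDKO) lost both Rev-erbs, nuclear receptors that repress clock genes, in hepatocytes, RevScapTKO mice lost the Rev-erbs and Scap, which escorts SREBP for its cleavage, and ScapKO mice lost Scap alone. The Cre was expressed in hepatocytes, so the liver macrophages kept intact alleles in every genotype. The labels do not say whether the 3 libraries of a group came from separate animals, and p-values then measure the spread between these libraries.

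CYP2 enzymes sit in the endoplasmic reticulum, take electrons from cytochrome P450 reductase and cytochrome b5, and oxidize drugs, toxicants, steroids, bile acids and arachidonic acid. In the mouse liver many of them are made mostly by hepatocytes around the central vein, several differ between the sexes under the control of pulsatile growth hormone, and some are induced by nuclear receptors such as CAR. The genes lie in tandem clusters of recent duplicates, so close relatives share long stretches of sequence.

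The 35 members comprised 12 Cyp2c, 8 Cyp2d, 4 Cyp2a, 4 Cyp2j and 2 Cyp2b genes, with Cyp2e1, Cyp2f2, Cyp2r1, Cyp2s1 and Cyp2u1 as the lone members of their subfamilies. In the mm9 coordinates of the files the Cyp2a and Cyp2b genes, Cyp2e1, Cyp2f2, Cyp2r1 and Cyp2s1 were on chromosome 7, the Cyp2c genes on chromosome 19, the Cyp2d genes on chromosome 15, the Cyp2j genes on chromosome 4 and Cyp2u1 on chromosome 3. In hepatocytes 34 members passed the filter and in macrophages 30 did. Cyp2s1 passed in macrophages alone, and Cyp2a22, Cyp2c39, Cyp2c40, Cyp2c55 and Cyp2j8 in hepatocytes alone. Just inside the filter was Cyp2c40, over 5 in 3 hepatocyte libraries, and just outside were Cyp2t4 and Cyp2w1, over 5 in 1 hepatocyte library each. The other symbols outside were Cyp2b13, Cyp2b19, Cyp2b23, Cyp2c65, Cyp2c66, Cyp2c69, Cyp2d34, Cyp2g1, Cyp2j11, Cyp2j12 and Cyp2j13, which were over 5 in none of these libraries.

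Cyp2a4 and Cyp2a5, the members with the largest differences between RevScapTKO and Control hepatocytes, are near-identical copies that short reads separate in part. Cyp2a5 (NM_007812, chromosome 7, 27620358 to 27628283, plus strand) encodes the coumarin hydroxylase of mouse liver. Cyp2a4 (NM_009997, chromosome 7, 27092211 to 27100107, plus strand) encodes a steroid hydroxylase that is higher in females. Their coding sequences differed at 23 of 1485 positions, an identity of 98.5%, and the longest identical run was 216 bases. The stretch from coding base 550 to base 669 is shown because it holds 6 of these differences, in capitals, the bases by which a read can be assigned to either gene:
Cyp2a4: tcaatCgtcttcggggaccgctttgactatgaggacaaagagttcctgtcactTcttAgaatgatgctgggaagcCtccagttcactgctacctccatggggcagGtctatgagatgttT
Cyp2a5: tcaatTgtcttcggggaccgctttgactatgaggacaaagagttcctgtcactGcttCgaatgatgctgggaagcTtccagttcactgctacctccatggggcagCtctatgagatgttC
Of all 50-base windows of the transcript, 63.5% were unique to Cyp2a4 and 69.0% to Cyp2a5, as counted in the annotated transcripts.

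The start regions of the pair were as alike. The windows from 250 bases before to 50 bases after each transcript start, read from mm9 on the plus strand, were aligned. They differed at 7 positions of 301, of which 2 were gaps at or by the window ends, left by an offset of the windows. They are shown, with differing bases in capitals, because levels of the pair differed greatly in Control hepatocytes:
Cyp2a4 (chr7:27091961-27092260): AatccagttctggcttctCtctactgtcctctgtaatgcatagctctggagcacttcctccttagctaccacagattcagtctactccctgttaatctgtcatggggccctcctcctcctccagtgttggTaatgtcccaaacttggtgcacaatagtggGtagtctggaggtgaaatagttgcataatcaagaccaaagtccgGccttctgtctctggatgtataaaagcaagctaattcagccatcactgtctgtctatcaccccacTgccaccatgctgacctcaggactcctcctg
Cyp2a5 (chr7:27620108-27620407): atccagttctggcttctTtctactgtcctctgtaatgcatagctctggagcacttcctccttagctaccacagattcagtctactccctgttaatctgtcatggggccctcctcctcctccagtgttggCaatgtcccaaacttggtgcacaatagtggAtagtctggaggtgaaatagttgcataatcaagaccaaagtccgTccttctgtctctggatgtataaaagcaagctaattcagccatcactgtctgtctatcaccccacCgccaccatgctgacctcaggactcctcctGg
Motifs in these windows are given further on with those of the other members.

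Other members were also counted with reads that could belong to a relative. Unique 50-base windows made up 28.0% of Cyp2c40, 46.5% of Cyp2c67, 56.7% of Cyp2c68, 61.6% of Cyp2d10 and 65.5% of Cyp2d11, and their values are uncertain in that respect. They made up 69.3% of Cyp2c50, 70.8% of Cyp2c37, 71.0% of Cyp2d9, 72.1% of Cyp2a12 and 75.0% of Cyp2c54. By contrast, Cyp2c23 (named Cyp2c44 in the annotation), Cyp2c55, Cyp2c70, Cyp2f2, Cyp2j9, Cyp2r1, Cyp2s1 and Cyp2u1 shared no such window with any other gene, and 97.5% of the windows of Cyp2e1 were unique. Cyp2d13 was not matched to an annotated coding transcript, and 34 of the 35 members were.

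Levels were in RPKTM, 10 times an RPKM (reads per kilobase of transcript and per fixed number of reads). They had been quantile normalized within each table before deposit, which makes them comparable between genes per length and between libraries of 1 table. The read depth of the libraries is unknown. Scap was lower in RevScapTKO hepatocytes (82.8 to 299 RPKTM) than in Control (395 to 698), with no overlap, whereas Nr1d1, which encodes Rev-erbα, was not lower in the libraries labelled RevDKO (39.9 to 359) than in Control (3.57 to 358). The files give levels of whole transcripts and not of the deleted exons, so the level of Nr1d1 does not check the label. Hepatocyte libraries also held macrophage markers: the sum of 12 markers had a median of 928 in Control (255 to 3291), 1133 in RevDKO (425 to 2551) and 3014 in RevScapTKO (991 to 6682), none of the 12 was at 0 throughout a genotype, and 12 of 12 were called higher in RevScapTKO against either other genotype.

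In Control hepatocytes, Cyp2e1, which oxidizes ethanol and paracetamol, was by far the most abundant member. It ranged from 15851 to 39107 RPKTM (median 33862) and made up 47.7% of the summed mean levels of the family. Cyp2d10 (4633 ± 609, SD, n = 12), Cyp2d9, a male-biased steroid hydroxylase (4593 ± 498), Cyp2d26 (3579 ± 346) and Cyp2j5, an arachidonic acid epoxygenase (2918 ± 335), came next. Cyp2d10 and Cyp2d9 did not differ beyond their spread, and the ranges of Cyp2d26 (2933 to 4026) and Cyp2j5 (2374 to 3471) overlapped. Cyp2a5 stood at position 10 with 1685 ± 830 and Cyp2a4 at position 29 with 10.7 ± 6.34. At the low end, Cyp2c39, Cyp2c55, Cyp2c40 and Cyp2j8 had means between 2.05 and 3.07, close to the filter.

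The order at the top differed between genotypes. Values at the top are coarse, because quantile normalization assigns each rank of a library a fixed value, so that Cyp2e1 and Cyp2a5 took the same values in several libraries. In RevDKO hepatocytes Cyp2a5 moved to position 2 behind Cyp2e1 (32069 ± 15014) and made up 8.71% of the family sum, against 2.6% in Control. In RevScapTKO hepatocytes Cyp2e1 fell to 28.8% of the sum, Cyp2a5 reached 21.6%, and Cyp2a4 rose to position 4 with 6.26%. The summed level overlapped between genotypes: its median was 64711 in Control (45001 to 79347), 66549 in RevDKO (58958 to 102757) and 63890 in RevScapTKO (46644 to 95186).

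**Figure D1:**
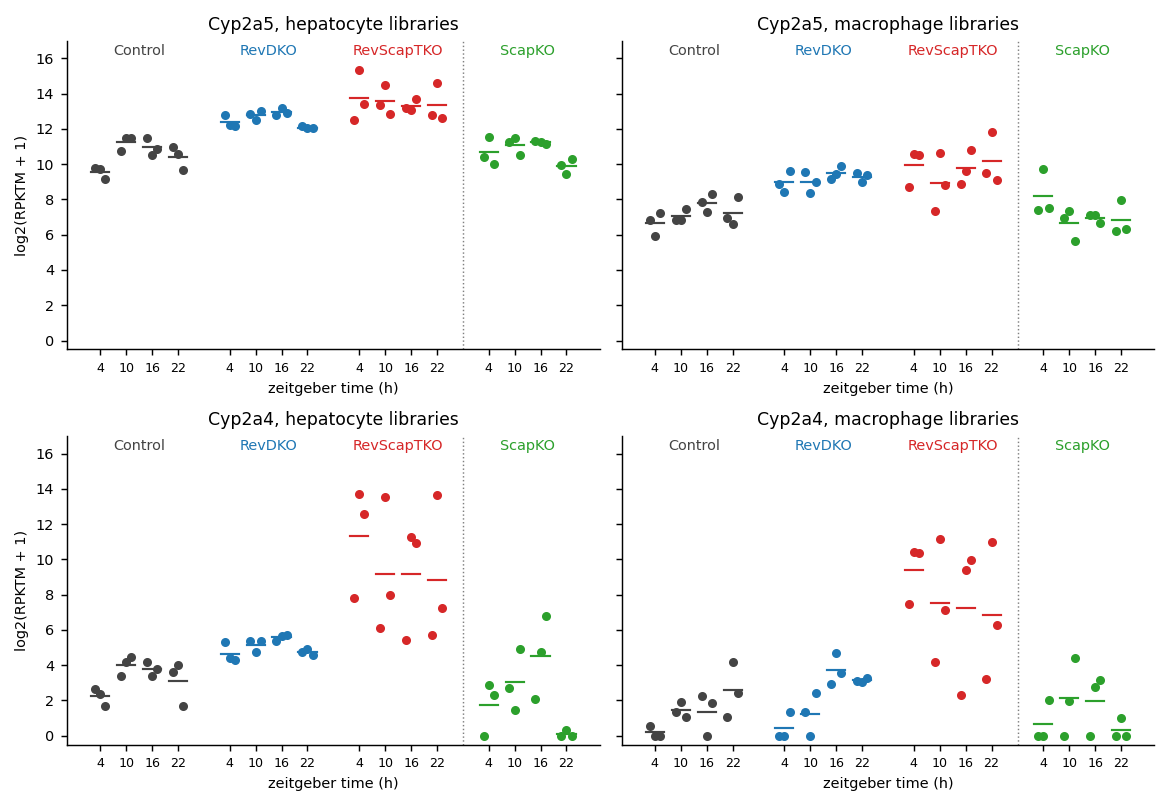
Cyp2a5 and Cyp2a4 in each library, as log2(RPKTM + 1) against zeitgeber time in hours, with a bar at the mean of the 3 libraries of a group. ScapKO, right of the dotted line, was normalized in another table. Cyp2a5 is higher in all RevDKO hepatocyte libraries (4180 to 9475 RPKTM) than in all Control ones (578 to 2852), and Cyp2a4 spreads over the widest range in RevScapTKO.

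Loss of the Rev-erbs addressed which hepatocyte genes follow the clock repressors. Compared with Control, 5 members were higher and 4 lower in RevDKO hepatocytes, averaged over the 4 times, by limma at an adjusted p under 0.05. Over all 13326 genes tested, 2% were higher and 2.43% lower. The median difference of the 34 members was 0.07 on the log2(RPKTM + 1) scale, against −0.01 over all genes, so the calls were spread over both directions.

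Cyp2a5 carried the largest rise. It ranged from 578 to 2852 RPKTM in Control (median 1619) and from 4180 to 9475 in RevDKO (median 6418), and the groups did not overlap. The log2 difference was 2.02 ± 0.25 (SE), 4.04-fold, adjusted p 9.43e-07, and it was positive at all 4 times, from 1.57 at ZT10 to 2.81 at ZT4. Cyp2a4 ranged from 2.16 to 21.3 in Control and from 18.3 to 51.8 in RevDKO. Its difference of 1.76 ± 0.78 did not pass by limma (adjusted p 0.234). It passed (adjusted p 7.85e-06) where RevScapTKO, in which Cyp2a4 varied widely, was left out of the fit. Cyp2a4 stood at 0.406% to 0.701% of Cyp2a5 in RevDKO and at 0.268% to 0.985% in Control, so its share of the pair overlapped between these genotypes.

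The other rises were in the Cyp2c and Cyp2j subfamilies. Cyp2c68 had a median of 439 in Control (281 to 699) and 768 in RevDKO (546 to 1063), a difference of 0.77 ± 0.13 (adjusted p 0.000144). Cyp2c67 went from 568 ± 119 to 963 ± 284 (0.74 ± 0.19, adjusted p 0.0139). Cyp2c67 and Cyp2c68 shared 40.0% and 35.6% of their windows with Cyp2c40, and their calls are uncertain in that respect. Cyp2j6, an epoxygenase of the Cyp2j group, rose from 320 ± 45.7 to 422 ± 43.0 (0.41 ± 0.09, adjusted p 0.00543). Cyp2c55, low throughout, went from a median of 3.0 (0.504 to 4.21) to 7.43 (3.44 to 15.6), a difference of 1.39 ± 0.36 (adjusted p 0.0176) that missed the threshold with a pseudocount of 10 (adjusted p 0.111). Without the level filter the calls of Cyp2c67 (adjusted p 0.0571) and Cyp2c55 (adjusted p 0.0675) were lost.

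Among the falls, Cyp2d26 was the most abundant gene. It ranged from 2933 to 4026 in Control (median 3663) and from 1606 to 3493 in RevDKO (median 2306), with an overlap at the upper end of RevDKO, and fell by 0.65 ± 0.10 on the log2 scale (adjusted p 2.86e-05). Cyp2d40 ranged from 133 to 298 in Control and from 59.6 to 194 in RevDKO, and fell by 1.18 ± 0.26 (adjusted p 0.00371). Cyp2a22, a low-level relative of Cyp2a12 with 97.0% coding identity to it, had a median of 13.2 in Control and 4.97 in RevDKO (−1.30 ± 0.30, adjusted p 0.00597). Cyp2a12 itself, at 1956 ± 201 in Control and 1732 ± 253 in RevDKO, did not pass (adjusted p 0.298).

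Cyp2b10, the classical target of CAR and of phenobarbital, was low and variable. It ranged from 0 to 52.8 in Control (median 9.82) and from 0 to 17.6 in RevDKO (median 3.93), and it was listed at 0 in all 3 RevDKO libraries of ZT4. Its difference was −1.78 ± 0.49 with an adjusted p of 0.0278, and the call was lost with a pseudocount of 0.1 (adjusted p 0.0629), without the level filter (adjusted p 0.101) and in 9 of 24 fits that left out a library. Cyp2b9, a female-biased relative, ranged from 2.22 to 208 in Control and from 0 to 118 in RevDKO and did not pass (−0.76 ± 0.62, adjusted p 0.596). Cyp2e1 had a difference of −0.01 ± 0.18 (adjusted p 0.994).

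**Figure D2:**
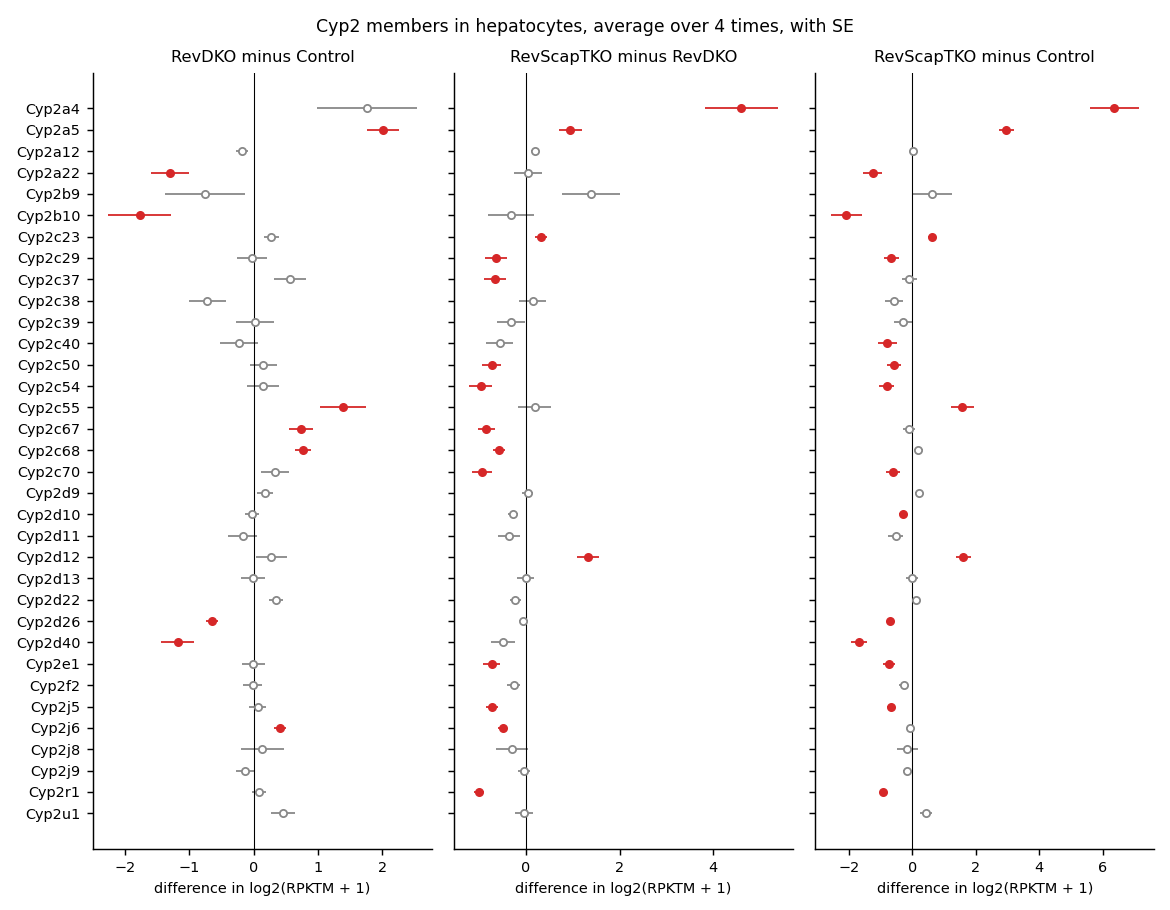
Differences of the 34 members tested in hepatocytes, averaged over 4 times, on the log2(RPKTM + 1) scale with SE bars, in 3 panels: RevDKO against Control, then RevScapTKO against RevDKO and against Control. Filled red points passed an adjusted p under 0.05 over all genes: 9, 15 and 18 members. Cyp2a4 has the largest difference in both panels of RevScapTKO (4.60 and 6.36), and most filled points there lie below 0.

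The comparison of RevScapTKO with RevDKO asked what additional loss of Scap changed. Against RevDKO, 4 members were higher and 11 lower in RevScapTKO hepatocytes, where 13.5% of all genes tested were higher and 12.7% lower. The median difference of the members was −0.29, against −0.03 over all genes. In these hepatocyte libraries the macrophage markers were higher as well, as given above. Of 12 hepatocyte markers, 1 was called higher and 3 lower in this comparison, with a median difference of −0.15. Fewer hepatocytes and less RNA per hepatocyte cannot be told apart in bulk libraries, and their part in the falls was not tested. With the mean level of the macrophage markers as a covariate, the count of members called was 3 in place of 15. These markers differed between the genotypes compared, and the share of all genes called with the covariate is not set beside this count. The drop is therefore not shown to be particular to the members.

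Of the 12 Cyp2c members tested, 7 were lower in RevScapTKO than in RevDKO and 1 was higher. Cyp2c54, from the Cyp2c cluster on chromosome 19, ranged from 676 to 1453 in RevDKO (median 1111) and from 132 to 1398 in RevScapTKO (median 605), a difference of −0.96 ± 0.24 (adjusted p 0.00418). Cyp2c70, which makes the muricholic acids of rodent bile, had medians of 1633 and 1096 (−0.94 ± 0.22, adjusted p 0.00196). The ranges of both genes overlapped between the genotypes, and in both the lowest RevScapTKO values were at ZT4. Cyp2c67 (−0.84 ± 0.19), Cyp2c50 (−0.73 ± 0.21), Cyp2c37 (−0.66 ± 0.24), Cyp2c29 (−0.64 ± 0.23) and Cyp2c68 (−0.58 ± 0.13) fell as well. Without the 3 RevScapTKO libraries that correlated least with the rest (ZT4 replicates 2 and 3 and ZT22 replicate 2), the differences of Cyp2c54, Cyp2c70, Cyp2c50 and Cyp2c29 were −0.44, −0.49, −0.24 and −0.10, and none of the 4 passed. The call of Cyp2c29 was also lost in 11 of 24 fits that left out a library. With the marker covariate Cyp2c67 and Cyp2c68 had differences of −0.31 and −0.42 and did not pass.

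Members outside the Cyp2c subfamily fell too. Cyp2r1, which hydroxylates vitamin D in the liver, ranged from 57.1 to 88.7 in RevDKO and from 21.3 to 59.9 in RevScapTKO, a difference of −1.0 ± 0.10 (adjusted p 1.21e-08) that was negative at all 4 times. Cyp2r1 shares no 50-base window with another gene, and its RevScapTKO and RevDKO ranges overlapped only between 57.1 and 59.9. Cyp2e1 went from a median of 28906 in RevDKO to 17428 (−0.73 ± 0.18, adjusted p 0.00263), Cyp2j5 from 2980 to 2024 (−0.73 ± 0.13) and Cyp2j6 from 429 to 292 (−0.50 ± 0.09). With the marker covariate the differences of Cyp2e1 and Cyp2j5 were −0.15 and −0.47 and did not pass, and Cyp2e1 lost its call without the level filter as well (adjusted p 0.0618).

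Cyp2a4, Cyp2a5, Cyp2d12 and Cyp2c23 were the 4 members that rose. Cyp2d12 ranged from 3.67 to 17.5 in RevDKO (median 7.11) and from 7.49 to 45.9 in RevScapTKO (median 19), with a difference of 1.33 ± 0.24 (adjusted p 0.000158) that lay between 1.13 and 1.54 at the 4 times. Cyp2c23, an arachidonic acid epoxygenase, rose by 0.33 ± 0.12 (adjusted p 0.0457), and this call was lost without the level filter (adjusted p 0.0737) and in 16 of 24 fits that left out a library. Cyp2a5 ranged from 5836 to 41798 in RevScapTKO (median 10022), overlapping RevDKO, and rose by a further 0.94 ± 0.25 (adjusted p 0.0054). That further rise of Cyp2a5 was 0.47 without the 3 libraries named above (adjusted p 0.107) and 0.60 with the marker covariate (adjusted p 0.509).

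Cyp2a4 showed the widest spread of any member. In RevScapTKO hepatocytes it ranged from 41.5 to 13136 RPKTM with a median of 1089. That median falls in a gap, since 6 libraries were over 1000 and 6 were under 250. Replicate 1 was in the lower set at all 4 times (41.5 to 225), and replicate 2 in the upper set (2466 to 13136). The lowest RevScapTKO value of Cyp2a4 was above the highest Control value of 21.3 but below the highest RevDKO value of 51.8. Averaged over both sets, the difference from RevDKO was 4.60 ± 0.78 (adjusted p 6.28e-05) and 2.34 with the marker covariate (adjusted p 0.245). Cyp2a4 stood at 0.444% to 55.6% of Cyp2a5 in RevScapTKO (median 9.12%), against the narrow RevDKO range given above. With the pair summed after normalization, the level rose by 2.02 in RevDKO and by a further 1.18 in RevScapTKO (adjusted p 0.00279). The sum depends less on how reads were split between the pair, but it would not recover reads dropped at counting.

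**Figure D3:**
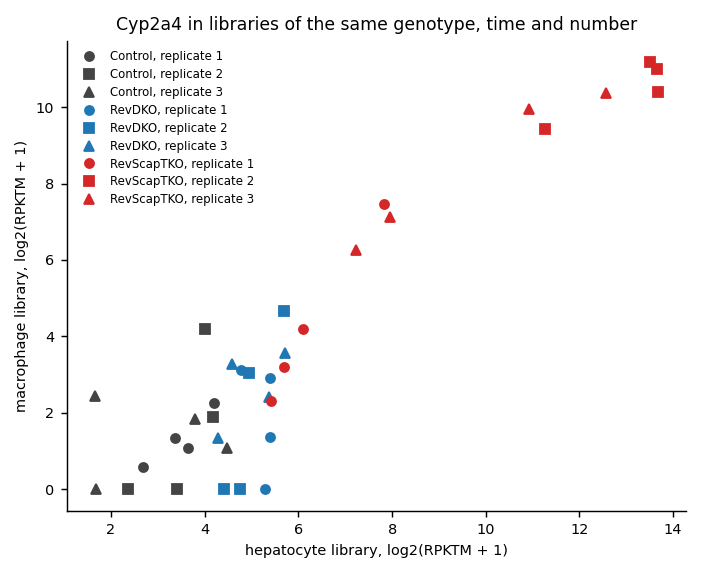
Cyp2a4 in the macrophage library against the hepatocyte library of the same genotype, time and replicate number, as log2(RPKTM + 1), 36 points. RevScapTKO points spread over both axes, with hepatocyte values from 41.5 to 13136 RPKTM and macrophage values from 3.96 to 2321.

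Against Control, 5 members were higher and 13 lower in RevScapTKO hepatocytes, where 17.3% of all genes were higher and 18.7% lower. This comparison shares its Control libraries with the RevDKO comparison and its RevScapTKO libraries with the one before. Cyp2a5 had a difference of 2.96 ± 0.25, 7.78-fold (adjusted p 6.32e-11), and its groups did not overlap. Cyp2d12 (1.60 ± 0.24), Cyp2c55 (1.57 ± 0.36) and Cyp2c23 (0.60 ± 0.12) were higher too, and Cyp2a4 by 6.36 ± 0.78. For Cyp2c55 the limit set by the level filter, given above, applies here as well.

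Several members that fell in RevDKO were also low in RevScapTKO. Cyp2b10 ranged from 0 to 22.8 (median 1.63; −2.09 ± 0.49 from Control, adjusted p 0.00128), Cyp2d40 from 15.3 to 143 (−1.68 ± 0.26, adjusted p 9.20e-06), Cyp2a22 from 2.14 to 15.7 (−1.26 ± 0.30) and Cyp2d26 from 1559 to 2980 (−0.70 ± 0.10, adjusted p 1.94e-06). None of these 4 differed from RevDKO at the threshold. Cyp2c68, Cyp2c67 and Cyp2j6, higher in RevDKO, had differences from Control of 0.19, −0.11 and −0.09 in RevScapTKO and did not pass. Cyp2r1 (−0.92 ± 0.10) and Cyp2e1 (−0.74 ± 0.18) were below Control as well, as were Cyp2c54 (−0.82 ± 0.24) and Cyp2c40 (−0.79 ± 0.30), the latter with no library over 1.41. Cyp2c40 passed the level filter only through Control and RevDKO libraries, so its call as lower in RevScapTKO is not independent of that filter. The macrophage markers were higher in RevScapTKO than in Control too. With them as a covariate 9 members were called in place of 18, again without the share of all genes beside it. Cyp2e1 then had a difference of −0.12 (adjusted p 0.819), Cyp2d40 one of −0.93 (adjusted p 0.0933) and Cyp2a22 one of −1.28 (adjusted p 0.0818).

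The electron donors of the family and the genes of heme synthesis were counted as its partners. Beside the list counts that follow, the shares of all genes called higher and lower were 2% and 2.43% in RevDKO against Control, 13.5% and 12.7% in RevScapTKO against RevDKO, and 17.3% and 18.7% in RevScapTKO against Control. Of 11 electron transfer and heme genes tested, Alad alone fell in RevDKO against Control (−0.48 ± 0.13) and none rose. In RevScapTKO against RevDKO, Alas1, the rate-limiting enzyme of heme synthesis, rose from 945 ± 469 to 1964 ± 864 RPKTM (1.06 ± 0.23, adjusted p 0.00124). In the same comparison 4 fell, among them Cyb5b, a cytochrome b5 (−1.02 ± 0.14), and Cyb5r3, its reductase (−0.51 ± 0.10). Por, the P450 reductase, was called in RevScapTKO against Control (−0.57 ± 0.16, adjusted p 0.00644) and missed the threshold in RevDKO against Control (−0.49 ± 0.16, adjusted p 0.083). Against Control, 1 of the 11 rose in RevScapTKO and 7 fell, with a median of −0.48 over the list and −0.04 over all genes.

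Among 21 regulators of P450 genes, Nfil3, a clock-linked repressor, rose in RevDKO against Control (2.48-fold, adjusted p 1.19e-08) and 3 fell, among them Cebpb (−0.60 ± 0.16) and Nr1i3, which encodes CAR (−0.40 ± 0.11). In RevScapTKO against RevDKO, Nfe2l2 rose (0.35 ± 0.10) and Hlf, Cebpa and Ghr fell by 0.43, 0.41 and 0.37. Against Control, 2 regulators rose in RevScapTKO and 6 fell. Nr1i2, which encodes the pregnane X receptor, passed in none of the 3 hepatocyte comparisons.

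Sex-biased genes moved in both directions. Of 5 female-biased members tested, Cyp2b10 fell in RevDKO against Control, and Cyp2a4 rose in RevScapTKO against RevDKO. Outside the family, of 4 female-biased genes tested Ntrk2 rose in RevDKO against Control (2.0 ± 0.42), and Tox (−1.27 ± 0.22) and Fmo2 (−0.86 ± 0.30) fell in RevScapTKO against RevDKO and none rose. Of 9 male-biased genes in the latter comparison, Mup20 (1.86 ± 0.18), Selenbp2 (1.99 ± 0.35) and Cyp7b1 (1.2 ± 0.25) rose and Cyp4a12a (−1.85 ± 0.20) and Cyp4a12b (−1.78 ± 0.31) fell. Cyp4a12a, a fatty acid hydroxylase of another P450 family, was already lower in RevDKO than in Control (−1.92 ± 0.20, adjusted p 3.81e-08). Mup20 was the 1 male-biased gene of this list called higher in RevDKO against Control.

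Zonation genes were counted because many Cyp2 genes are zonated, again beside 13.5% of all genes higher and 12.7% lower in RevScapTKO against RevDKO. Of 10 pericentral genes, Cyp1a2 rose (0.55 ± 0.17), and Glul, Tbx3 and Rnf43 fell in RevScapTKO against RevDKO. Of 9 periportal genes, 3 rose, among them Cdh1 (1.54 ± 0.20), and 6 fell, among them Ass1 (−0.86 ± 0.13) and Sds (−1.72 ± 0.25). In RevDKO against Control, Rhbg fell among the former (−1.27 ± 0.25), and among the latter Ass1 (0.49 ± 0.12) and Gls2 (0.53 ± 0.15) rose and Cdh1 fell (−0.99 ± 0.20). Of the zonated members, the pericentral Cyp2e1 fell in RevScapTKO against RevDKO, and the periportal Cyp2f2 had a difference of −0.26 ± 0.15 (adjusted p 0.183).

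Daily rhythms were called within each genotype by JTK_CYCLE with the series of 4 times entered 2 times in a row. A call needed an adjusted p under 0.05, a period of 24 h and a highest time mean over 1.5 times the lowest. This p was adjusted for the 7 combinations of period and phase tried on a gene, and not over genes as in limma. Entering the series again makes p-values smaller without adding data, so the count with the series entered once follows each count. In hepatocytes 12 members were rhythmic in Control (29% of all genes tested; 1 member with the series entered once), 14 in RevDKO (29.7%; 7 members), 3 in RevScapTKO (20.8%; 1 member) and 7 in ScapKO (19.1%; 1 member). Each percentage is the share called among all genes tested in that genotype, with the series entered 2 times. The share of all genes with the series entered once is not set beside the second counts. Differences between those counts are therefore not shown to be particular to the members.

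The change in rhythm itself was tested as well. No member passed the limma F test of a changed 24 h rhythm between RevDKO and Control, where 0.203% of all genes did, and 0 members had an unadjusted p under 0.05 (Cyp2c39, the lowest, 0.118). Between RevScapTKO and RevDKO no member passed and 0% of all genes did, with 6 members under 0.05 unadjusted, the lowest being Cyp2b9 at 0.0114 and Cyp2d26 at 0.0167. A rhythm called in one genotype and not in another is therefore not shown to differ between them.

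Within Control hepatocytes, most peaks fell late in the day or in the night. Cyp2a5 rose from 767 ± 164 RPKTM at ZT4 to 2466 ± 649 at ZT10 and stood at 1440 ± 597 at ZT22 (n = 3 each, peak ZT13). Cyp2e1 was highest at ZT10, at 38235 ± 1510, and lowest at ZT22, at 24581 ± 4470. Cyp2c70 was the only member called with the series entered once (peak ZT19), with 1013 ± 69.0 at ZT10 and 1778 ± 281 at ZT22. Cyp2c37, Cyp2c39, Cyp2c54 and Cyp2c68 were called with a peak at ZT16, and Cyp2b10 with one at ZT19.

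In RevDKO hepatocytes, 6 of the 14 called were also called in Control. Cyp2c54 peaked at ZT10 (1390 ± 63.7) rather than ZT16 (1313 ± 248 in Control), and Cyp2j9 (111 ± 21.3 at ZT10, 59.6 ± 8.74 at ZT16) was called in RevDKO and not in Control. Cyp2e1 kept a peak at ZT10 with 43008 ± 21846, where 1 library reached 68172, and 19654 ± 563 at ZT22. Cyp2b10, listed at 0 at ZT4, reached 13.0 ± 5.76 at ZT16. In RevScapTKO, where spread within a time was wide, Cyp2j9 (119 ± 32.7 at ZT10, 48.5 ± 4.98 at ZT22), Cyp2c70 and Cyp2b9 were the 3 members called.

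**Figure D4:**
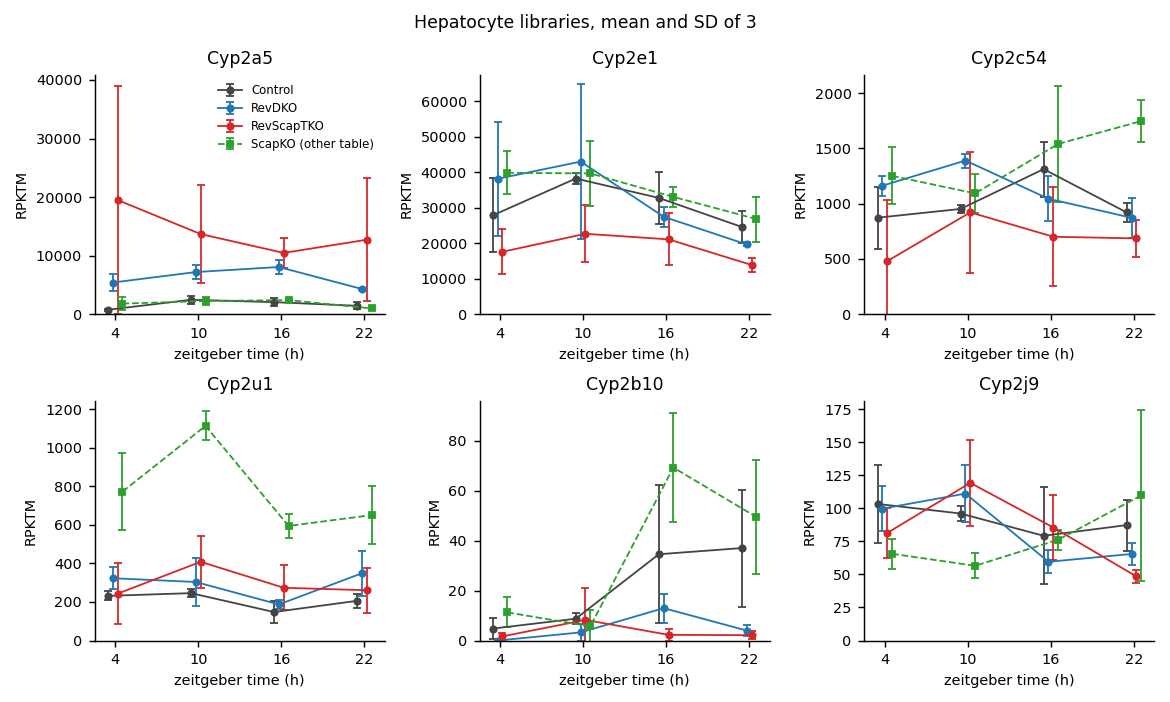
Levels in RPKTM at 4 zeitgeber times in hepatocytes, mean and SD of 3 libraries, for 6 members; bars that would pass below 0 end at the axis. ScapKO comes from another table and its level is not comparable. Cyp2a5 and Cyp2e1 peak near ZT10 to ZT16 in Control and RevDKO, and the RevScapTKO bars are the widest for Cyp2a5.

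ScapKO libraries were normalized apart and are described within themselves. The order was led by Cyp2e1 (34850 ± 7877, n = 12), Cyp2d9 (8270 ± 1052), Cyp2f2 (7999 ± 965), Cyp2d10 (7696 ± 1112) and Cyp2d26 (5603 ± 612), and Cyp2a5 stood at 1866 ± 805. The neighbours Cyp2d9, Cyp2f2 and Cyp2d10 did not differ beyond their spread. Of the 7 rhythmic members, Cyp2b10 went from 5.69 ± 6.52 at ZT10 to 69.2 ± 21.9 at ZT16 and was the one also called with the series entered once, and Cyp2u1, which hydroxylates long-chain fatty acids, from 1113 ± 74.7 at ZT10 to 594 ± 60.2 at ZT16. Cyp2u1 had its peak at ZT7 in ScapKO and in Control. The ScapKO hepatocyte libraries are called hepatocytes in their titles and liver macrophages in another label field; their hepatocyte markers (mean log2 level 13.9 to 14.6) were far above their macrophage markers (4.84 to 7.44).

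Macrophage libraries held the same family at lower levels, beside hepatocyte markers at a mean log2 level of 9.96 to 11.3 in Control, 9.96 to 11.3 in RevDKO and 9.10 to 11.5 in RevScapTKO. Their Cyp2 levels are therefore given beside those markers, and the part of hepatocyte RNA in them was not tested. The summed Cyp2 level had a median of 7043 in Control (3580 to 12938), 7784 in RevDKO (3856 to 12346) and 6308 in RevScapTKO (1773 to 11495). Cyp2e1, Cyp2d10, Cyp2d9 and Cyp2d26 led in Control, the same 4 genes in the same order as in Control hepatocytes. Cyp2s1, the member that passed in macrophages alone, was over 5 in 4 libraries and reached 14.4.

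**Figure D5:**
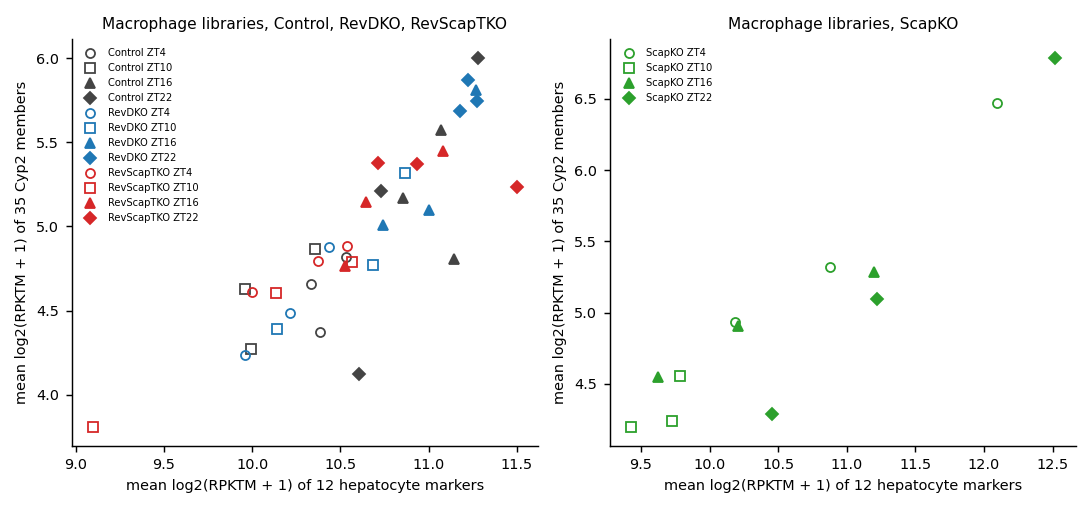
Macrophage libraries, mean log2(RPKTM + 1) of the 35 members against that of 12 hepatocyte markers, coloured by genotype and shaped by time, with ScapKO in its own panel. In each panel the library lowest in markers (9.10 and 9.43) is also the lowest in members, and filled symbols mark ZT16 and ZT22.

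In macrophages of RevDKO mice 2 of 30 members were higher than in Control and 0 lower, where 0.402% and 0.172% of the 13947 genes tested were. Cyp2a5 ranged from 60.3 to 319 in Control and from 331 to 949 in RevDKO with no overlap, a difference of 2.0 ± 0.32 (3.99-fold, adjusted p 0.000532). In hepatocytes its log2 difference was 2.02. None of the 12 hepatocyte markers was called in macrophages, which does not tell from which cells the Cyp2a5 RNA came. The part of hepatocyte RNA in this rise was not tested. Cyp2c68 (1.17 ± 0.28, adjusted p 0.0452) lost its call in 18 of 24 fits that left out a library and under 6 other settings. The difference of Cyp2a5, by contrast, lay between 1.68 and 2.32 at the 4 times.

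In RevScapTKO macrophages 1 member was higher and 7 lower than in RevDKO, against 1.23% and 1.78% of all genes. Cyp2a4 ranged from 0 to 24.5 in RevDKO and from 3.96 to 2321 in RevScapTKO (5.60 ± 0.77, adjusted p 9.86e-06), with an overlap at the low end. Cyp2e1 went from a median of 2567 (1265 to 4074) to 983 (451 to 1617), a difference of −1.44 ± 0.21 (adjusted p 1.97e-05), and Cyp2c54 (−1.60 ± 0.25), Cyp2c70 (−1.54 ± 0.24), Cyp2c29 (−1.44 ± 0.26), Cyp2c50 (−1.40 ± 0.23), Cyp2c37 (−1.12 ± 0.24) and Cyp2c67 (−1.10 ± 0.27) fell too. These 7 were among the 11 called lower in RevScapTKO hepatocytes against RevDKO. Cyp2a5 had a further difference of 0.50 ± 0.32 that did not pass (adjusted p 0.437), and Apoa2 was the lone hepatocyte marker called, as lower.

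Against Control, 2 members were higher in RevScapTKO macrophages, Cyp2a4 (6.35 ± 0.77) and Cyp2a5 (2.50 ± 0.32), and 6 lower, against 2.38% and 1.38% of all genes. The lowest differences were those of Cyp2e1 (−1.75 ± 0.21), Cyp2c54 (−1.66 ± 0.25), Cyp2c29 (−1.56 ± 0.26) and Cyp2c50 (−1.47 ± 0.23). Cyp2c70 (−1.28 ± 0.24) and Cyp2d40 (−1.30 ± 0.31) were lower too. Of the 12 hepatocyte markers, Apoa2 was called lower in this comparison and none higher. Cyp2e1 ranged from 1536 to 5379 in Control, overlapping RevScapTKO between 1536 and 1617.

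Rhythmic members were numerous in macrophages, and so were rhythmic hepatocyte markers. The percentages are again for the series entered 2 times, and the counts with it entered once have no share of all genes beside them. In Control 12 members were rhythmic (20.2% of all genes; 3 members with the series entered once), 9 of them with a peak at ZT19, as were 5 of the 12 hepatocyte markers, 4 of them with that peak. In RevDKO 21 members were (28.2%; 10 members), 16 with a peak at ZT19, as were 8 markers, all 8 with that peak. In RevScapTKO 19 members were (15.4%; 9 members), 13 at ZT19 and 5 at ZT22, as were 9 markers, 6 at ZT19 and 3 at ZT22. In ScapKO 16 members were (21.4%; 1 member), 14 at ZT1 and 2 at ZT22, as were 10 markers, 9 of them at ZT22. Without ScapKO ZT22 replicate 2, which correlated least with the rest, 9 members were.

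The part of the hepatocyte RNA in these member rhythms was not tested. Cyp2c29, a pericentral enzyme, was called in macrophages of all 4 genotypes with ratios of 4.52, 7.05, 4.73 and 5.91 between the highest and lowest time mean, and in hepatocytes of none. No member passed the test of a changed rhythm in macrophages between RevDKO and Control or between RevScapTKO and RevDKO, where 0% of all genes did in either. Unadjusted, 2 and 4 members had p under 0.05, Cyp2d11 at 0.0117 being the lowest of the former and Cyp2b10 at 0.0269 of the latter.

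Start regions were searched for 4 letter strings bound by factors of the clock and of nuclear receptors, on both strands, in the same window of 250 bases before to 50 after the start. AGGTCA, the half-site of nuclear receptors, was present in 11 of 35 members (31.4%) and in 14.4% of 25011 start regions. It occurred in Cyp2a4, Cyp2a5, Cyp2b9, Cyp2c23, Cyp2c29, Cyp2c70, Cyp2d12, Cyp2d40, Cyp2f2, Cyp2j5 and Cyp2u1. In Cyp2a4, Cyp2a5, Cyp2d40 and Cyp2u1 it lay after the start. In Cyp2a4 and Cyp2a5 it reads tgacct on the strand printed above, just after an atg. The near-identical start regions of this pair count as 2 of the 11. Start regions of duplicated genes are not independent, so the share among members is not a count of separate cases. CACGTG, the E-box, was in Cyp2j6 alone (2.86% of members, 7.71% of all), and the D-box strings TTACGTAA and TTATGTAA were in 0 members (0.108% and 0.896% of all). Of the 11 genes with the half-site, 2 were called in RevDKO hepatocytes against Control, Cyp2a5 as higher and Cyp2d40 as lower, beside 9 of all 34 members tested and 2% of all genes higher and 2.43% lower. None of the 4 strings contains another.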

How the data were processed

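RNA-seq had been made from hepatocytes and liver macrophages. The authors aligned reads to mm9 with STAR and counted RefSeq transcripts with HOMER (versions and strand setting are not given in the sources used here), and deposited 4 tables of RPKTM, which is 10 times an RPKM, quantile normalized within each table. Groups came from the labels, 3 libraries each. The transcript with the highest mean stood for a gene, and genes over 5 in at least 3 libraries were kept. limma 3.58.1 with a mean-variance trend (R 4.3.3) was fitted on log2(RPKTM + 1), with 12 group means over 36 libraries per cell type, contrasts of the averages over 4 times, and Benjamini-Hochberg adjustment over all genes. Fold changes are on that scale and understate those of low genes. Rhythms were called with JTK_CYCLE rewritten in Python 3.11.15. Tests were run within a table only, and checked on simulated data. Read depth is unknown, so no counting error could be given, and only the spread between libraries limits precision.

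Members, gene lists and tests were chosen with earlier results of these data known. Named members were the 5 highest in Control hepatocytes, in each contrast the 4 largest called rises and falls, the 3 smallest p-values of each rhythm test, those rhythmic in 3 hepatocyte genotypes, and close paralogs. Other members, and genes of the lists beyond the 5 of smallest adjusted p in a hepatocyte contrast, were named after their values were seen. Sequences came from mm9 and its annotation. No library pair held identical values. Same-numbered libraries of different genotypes had correlations of deviations with a median of 0.0484 in hepatocytes and 0.0877 in macrophages, against −0.029 and −0.046 for different numbers. Alternatives were other pseudocounts (0.1 and 10), no filter, all transcripts, 2 genotypes only, a replicate block, a marker covariate and left-out libraries.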

Additional observations from a re-analysis of the deposited data

How the results depend on the processing

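Settings changed one at a time left 4530 values of single members on their side of the threshold. Of the rest, 121 lost a call, 51 gained one, and 5 changed sign with a call before or after the change. Changes of sign without a call were counted among the 4530. With the marker covariate, the members called in hepatocytes numbered 3 for RevScapTKO against RevDKO and 9 against Control. In the latter Cyp2c29 (0.14), Cyp2c50 (0.11), Cyp2c54 (0.010) and Cyp2c70 (0.024) changed sign, as did Cyp2c29 against RevDKO (0.11). The covariate and the left-out libraries of low correlation were chosen with results known, the latter after seeing the data. With RevScapTKO left out of the fit, 15 members were called in RevDKO hepatocytes against Control. Shares of all genes called are not set beside the counts of members in this section. In macrophages 1 member was called for RevDKO against Control with a pseudocount of 0.1, without the filter, with all transcripts, with 2 genotypes only, with the covariate, and without the 5 libraries of lowest correlation.

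Without 1 library, the hepatocyte counts ranged from 8 to 10 for RevDKO against Control, 12 to 16 for RevScapTKO against RevDKO and 15 to 20 for RevScapTKO against Control. Those of macrophages ranged from 1 to 4, 8 to 10 and 8 to 11 in the same order, the 4 coming without Control ZT22 replicate 3, and those of changed rhythms from 0 to 0.

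Rhythmic members with the series entered once numbered 1, 7, 1 and 1 in hepatocytes of Control, RevDKO, RevScapTKO and ScapKO and 3, 10, 9 and 1 in macrophages. With 24 h terms in limma the call used an unadjusted p under 0.05. Rhythmic members then numbered 3, 4 and 8 in hepatocytes of Control, RevDKO and RevScapTKO and 5 in ScapKO macrophages. By JTK_CYCLE without 1 library they ranged in hepatocytes from 6 to 11, 10 to 15, 1 to 6 and 6 to 9. In macrophages they ranged from 7 to 23, 17 to 22, 14 to 20 and 9 to 21. The count was 7 without Control macrophage ZT4 replicate 2, 23 without ZT22 replicate 1, and 9 without ScapKO macrophage ZT22 replicate 2. In hepatocytes it was 6 without Control ZT4 replicate 3, 7 without ZT4 replicate 2 or ZT16 replicate 3, 1 without RevScapTKO ZT4 replicate 2 or ZT10 replicate 3, 5 without ZT4 replicate 1 or ZT16 replicate 3, and 6 without ZT10 replicate 2. Apart from fits with fewer libraries or more genes, the cause was not tested.

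Same-numbered libraries of different genotypes were not treated as pairs, because the labels do not say what a number marks and the correlation of deviations was over 0.1 in 13 of 36 such pairs in hepatocytes and 15 of 36 in macrophages and not in all. It was over 0.1 in 7 of 72 differently numbered pairs of either cell type, and 22 of 36 hepatocyte and 20 of 36 macrophage comparisons correlated best with the own number, so same-numbered libraries were more alike than others. With the replicate block the members called numbered 9, 15 and 18 in hepatocytes for RevDKO against Control, RevScapTKO against RevDKO and RevScapTKO against Control, and 2, 9 and 9 in macrophages, where Cyp2c68 (−0.97, adjusted p 0.041, RevScapTKO against RevDKO) and Cyp2d26 (−0.67, adjusted p 0.0462, RevScapTKO against Control) were added.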

Other observations

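Cyp2a4 varied within RevScapTKO groups by more than between times. In hepatocytes it stood at 225, 13136 and 6031 RPKTM in replicates 1 to 3 of ZT4, at 67.8, 11707 and 248 at ZT10, at 41.5, 2466 and 1929 at ZT16, and at 50.5, 12963 and 148 at ZT22. In the macrophage libraries of the same labels it stood at 175, 1359 and 1320, at 17.2, 2321 and 139, at 3.96, 687 and 991, and at 8.19, 2043 and 76.2. Cyp2a5 in the hepatocyte libraries stood at 5836, 41798 and 10848, at 10688, 23089 and 7273, at 9356, 8641 and 13417, and at 7000, 24858 and 6304. The labels do not say whether a hepatocyte and a macrophage library of one number came from 1 mouse.

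Of the ScapKO hepatocyte libraries, ZT16 replicate 3 held the highest Cyp2a4 (109, next 29.0), Cyp2c39 (41.1, next 9.64) and Cyp2c40 (17.9, next 10.1), 3 genes that are higher in females. In the same library Xist, the RNA that silences one X chromosome in females, stood at 129.7, against at most 15.0 in the others, although the labels call all mice male. Levels of Y-linked genes are not set beside these, and the sex behind this library was not tested. ZT22 replicate 2 held Scap at 1006 where the others held 205 to 380, and the highest Cyp2d13 (2065) and Cyp2j9 (185). In ScapKO macrophages ZT22 replicate 2 had a median correlation of 0.766 with the others and a summed Cyp2 level of 23989, below the 25990 of ZT4 replicate 2 alone. Its hepatocyte markers were the highest of these libraries (mean log2 level 12.5) and its macrophage markers the lowest (10.2).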
